A study of Mus musculus with 1 sample.

Results

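Immediate early genes are switched on within minutes of a stimulus, without any new protein having to be made first. The 10 described here are Fos, Fosb, Fosl2, Jun, Junb, Egr1, Ier2, Arc, Npas4 and Nr4a1. They were chosen by gene symbol, as rows of the table of unique molecular identifiers (UMIs, tags that let each captured transcript be counted once), and all 10 were found among 51912 listed symbols. The study profiled single cells of the newborn mouse cerebral cortex in an examination of SERPINA3 and cortical neuron production. The data were 1 library of wild-type C57BL/6 tissue taken at P0, the day of birth, made by droplet-based 10x Genomics single-cell RNA-seq after the tissue had been digested with papain. Cells carrying SERPINA3 under Nestin-Cre were not analysed here. With 1 library there was no replicate error and no test, so every interval below is a 95% interval for counting error only.

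The products of Fos, Fosb and Fosl2 pair with those of Jun and Junb to form AP-1, a transcription factor that binds enhancers. In neurons, calcium entry and the kinases it activates switch such genes on through CREB, SRF and MEF2. Growth factors, mechanical stress and enzymatic dissociation of tissue switch on many of the same genes in neurons, glia and vessel cells, whereas Npas4 is known for a narrow response to calcium in neurons and Arc for a role at synapses.

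The library held 11062 cells with 90346034 UMIs, a median of 7196.5 UMIs per cell and a median mitochondrial share of 3.49%. Emx1, a marker of the cortical lineage, had a UMI in 32.8% of cells. Ttr, the leading choroid plexus gene, had 2 UMIs in the whole library. Cells were put into groups by UMIs of marker genes, none of them a member, and a group made in this way is called a gate. The excitatory neuron gate (Neurod2, Neurod6, Slc17a7, Tbr1 and related markers) held 6995 cells and the newborn excitatory neuron gate (Eomes, Neurog2, Neurod1, Sstr2) 473. Cells with newborn and dividing cell markers were kept in the newborn gate unless they passed another glial gate, so it could include dividing progenitors. The inhibitory neuron gate (Gad1, Gad2, Dlx genes) held 485 cells, the radial glia or astrocyte gate (Slc1a3, Aldoc, Hopx, Ttyh1 and related markers) 237, the dividing cell gate 96 and the oligodendrocyte precursor gate (Pdgfra, Olig1, Olig2, Sox10, Cspg4) 265. The smallest gates were Cajal-Retzius cells with 29 cells, microglia or macrophages with 20, endothelial cells with 16, mural cells or fibroblasts with 21 and red blood cells with 21. A further 447 cells passed gates of more than 1 family, as pairs of cells in 1 droplet would, and 1957 passed none. The cells without a gate were shallow, with a median of 994 UMIs and a median mitochondrial share of 22.3%.

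The stretch of DNA just before each start site is shown as a description, and no link between its letters and the levels was tested. Most members were higher in the glial and vessel gates. Exceptions were Fosl2 and Npas4, which were lower in radial glia or astrocytes. The short core of the cAMP response element, which CREB is known to bind, can be read in that stretch. RefSeq promoter sequences of the assembly GRCm38.p6 were used for 7 members, namely Fos, Fosb, Fosl2, Jun, Junb, Npas4 and Nr4a1. No sequence of Egr1, Ier2 or Arc was read. The reading step left out a chromosome, so a member not read need not have lacked an entry. The 5 members whose last 250 bases before the start held that motif are printed 5′ to 3′ on the strand of the gene, and capitals mark it, CGTCA or its reverse complement TGACG.
Fos: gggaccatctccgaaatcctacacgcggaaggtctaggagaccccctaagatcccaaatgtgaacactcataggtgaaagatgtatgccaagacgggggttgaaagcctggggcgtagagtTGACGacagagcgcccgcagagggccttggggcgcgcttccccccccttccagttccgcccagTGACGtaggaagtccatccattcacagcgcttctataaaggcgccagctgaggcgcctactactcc
Fosb: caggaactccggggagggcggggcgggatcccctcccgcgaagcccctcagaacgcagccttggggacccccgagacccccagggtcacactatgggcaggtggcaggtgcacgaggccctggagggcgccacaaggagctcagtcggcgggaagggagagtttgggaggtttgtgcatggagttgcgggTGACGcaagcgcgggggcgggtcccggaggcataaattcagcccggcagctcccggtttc
Junb: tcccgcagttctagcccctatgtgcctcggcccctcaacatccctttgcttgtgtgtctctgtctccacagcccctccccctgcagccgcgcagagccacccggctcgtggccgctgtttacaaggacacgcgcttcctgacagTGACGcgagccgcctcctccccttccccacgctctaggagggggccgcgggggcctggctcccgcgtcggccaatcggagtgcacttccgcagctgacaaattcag
Npas4: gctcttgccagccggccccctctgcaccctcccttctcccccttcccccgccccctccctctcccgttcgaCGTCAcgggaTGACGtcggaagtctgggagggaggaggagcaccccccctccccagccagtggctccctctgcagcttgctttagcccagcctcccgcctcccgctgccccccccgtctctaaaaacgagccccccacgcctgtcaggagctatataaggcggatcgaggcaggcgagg
Nr4a1: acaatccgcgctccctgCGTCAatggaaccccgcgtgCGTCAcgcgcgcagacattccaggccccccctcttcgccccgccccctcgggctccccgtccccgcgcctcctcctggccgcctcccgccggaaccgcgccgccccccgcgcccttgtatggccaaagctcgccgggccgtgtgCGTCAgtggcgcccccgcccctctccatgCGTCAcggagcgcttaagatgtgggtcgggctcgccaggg

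The windows lie at chr12:85473640-85473889 on the plus strand for Fos, chr7:19310046-19310295 on the minus strand for Fosb, chr8:84978749-84978998 on the minus strand for Junb, chr19:4989972-4990221 on the minus strand for Npas4 and chr15:101266596-101266845 on the plus strand for Nr4a1. Nr4a1 held 4 copies of the core, Fos and Npas4 2 each, and Fosb and Junb 1 each. The core, read on both strands, was present in 5 of the 7 members and in 17.8% of 32851 promoters of the same length. The GC box GGGCGG was in 6 of the 7 and in 32.7% of all promoters. Promoters of like base composition were not compared. The full element TGACGTCA, which contains the core, was in 0 of the 7 and in 1.55% of all promoters. The AP-1 motif TGANTCA was in 0 of the 7 against 6.75%, and the CArG box, the sequence bound by SRF, in 0 of the 7 against 1.47%. Only the stretch just before each start site was read, so a site further away would be missed. Egr1, Ier2 and Arc are not in these counts. Whether the members lack CArG boxes, AP-1 motifs or full elements elsewhere was not tested. A match describes these letters only, and neither a match nor its absence shows whether a factor was bound.

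Levels are given as CPM, the UMIs of a gene summed over a gate, divided by all UMIs of that gate outside the mitochondrial genes and scaled by 1000000. They were compared between gates within 1 gene, since transcripts of different genes are not captured alike. The 10 members together gave 281 CPM in the excitatory gate, and the level was 2967 CPM (2883–3051) in radial glia or astrocytes, 10.6 times the excitatory value (10.2–10.9). It was 2167 CPM (2103–2233) in oligodendrocyte precursors, 7.72 times the excitatory value, and 1752 CPM in dividing cells. The highest sums were those of the vessel gates, at 7510 CPM (7063–7978) in the 16 endothelial cells and 6195 CPM in the 21 mural cells or fibroblasts. Inhibitory neurons stood at 662 CPM, newborn excitatory neurons at 467 CPM and Cajal-Retzius cells at 221 CPM, so the neuronal gates were the lowest of the nucleated cells. The newborn value depended on the gate, since it was 1.66 times the excitatory sum, but 6.20 times with only the newborn cells that had no Neurod2 or Neurod6 UMI. The number of cells in that subset is not given here.

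A member was counted as higher or lower in a gate where its CPM differed by 2-fold or more from the excitatory gate, among genes with at least 50 UMIs in both gates together. All but Arc passed that minimum in each of these comparisons. In radial glia or astrocytes 7 of 9 members were higher and 2 lower, where 20% of 15361 genes were higher and 26.5% lower. In oligodendrocyte precursors the split was again 7 higher and 2 lower, with 19.2% of all genes higher and 20.9% lower. In endothelial cells 8 were higher and 1 lower, with 19.3% and 49.3% of all genes, and in mural cells or fibroblasts likewise 8 and 1, with 18.9% and 49.9%. The lower member in both vessel gates was Npas4 at 0 UMIs, where the upper limits of the ratio were 5.83 and 7.61, so that call shows no lower level. Dividing cells had 6 higher and 2 lower, beside 20.9% and 27.6% of all genes, and the sparse microglia or macrophages 5 and 3, beside 14.4% and 62.3%. The 3 lower in microglia or macrophages, Fosb, Npas4 and Nr4a1, had 0 UMIs in a gate too small to show a lower level, with upper limits of the ratio of 8.0, 14.3 and 12.4. Cajal-Retzius cells had 0 higher and 4 lower, beside 13.1% and 22.3%. Of these lower calls, the interval of the ratio includes 1 for Npas4 in dividing cells and oligodendrocyte precursors and for Fosb and Nr4a1 in Cajal-Retzius cells. Over alternative settings Npas4 ran from 0.268 to 0.614 in radial glia or astrocytes and from 0.354 to 0.777 in oligodendrocyte precursors. Some settings thus ended its lower calls, while Fosl2 stayed at least 2-fold lower in both gates. The median ratio over the members was 8.58 in radial glia or astrocytes against 0.917 over all genes, and 20.5 in endothelial cells against 0.521. Inhibitory neurons had 5 members higher and 1 lower, beside 8.62% and 9.89% of all genes. Equal weight per cell took Jun there to 1.95, and putting cells of more than 1 family in the rarer family took Junb to 1.97 and Egr1 from 1.80 to 4.16. Newborn excitatory neurons had 1 higher, Egr1, and 2 lower, Fosl2 and Npas4, beside 8.53% and 10.8%, counts near those shares. With only newborn cells lacking Neurod2 and Neurod6 UMIs, Egr1, Fos, Ier2 and Jun were all at least 2-fold higher. The share of all genes was not computed for that subset, and its number of cells is not given here. Over the 8 alternatives Fosl2, Junb, Npas4 and Nr4a1 gave a ratio in only 7, since a member without a UMI on 1 side was skipped. The shallow cells without a gate had 3 higher and 0 lower, beside 24.8% and 4.18%.

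**Figure D1:**
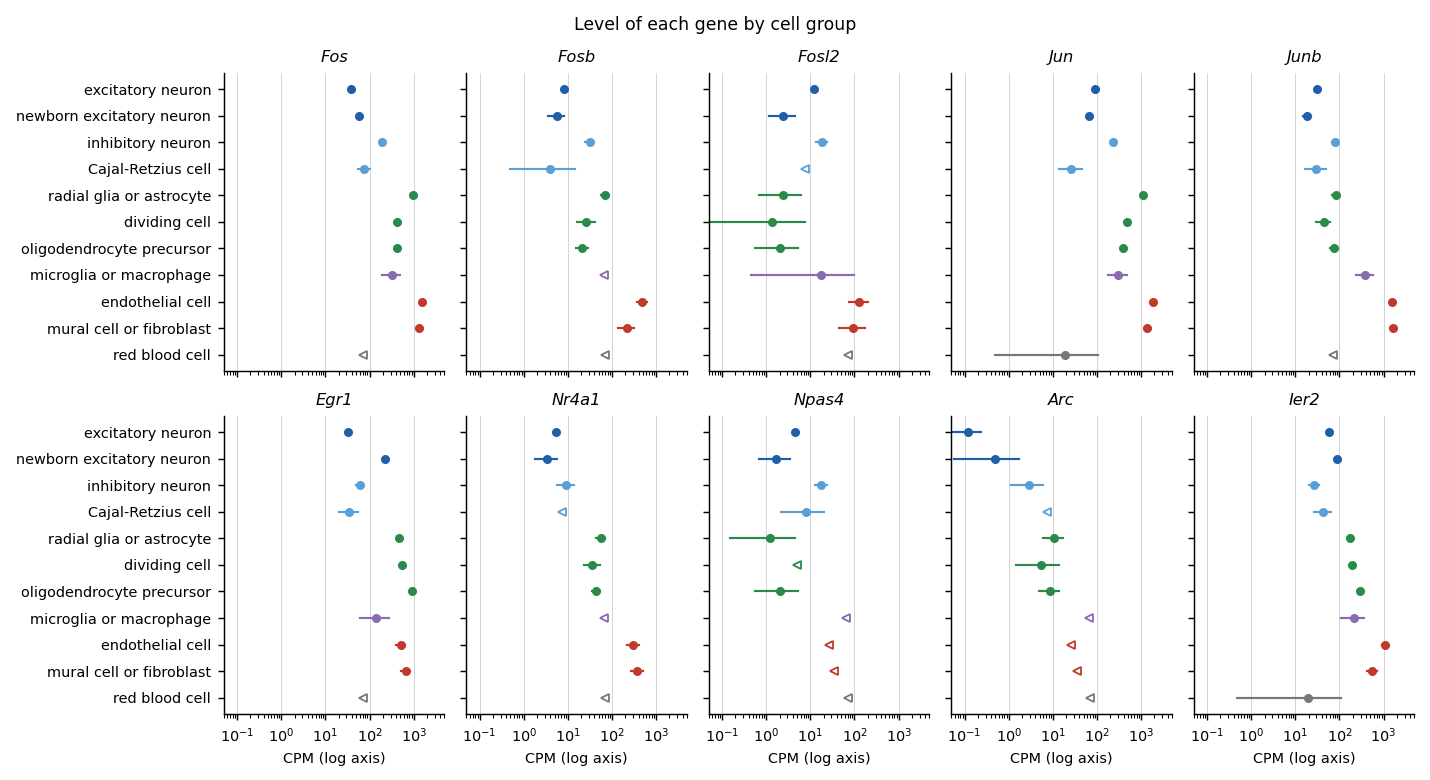
Level of each of the 10 genes in 11 gates of the single library, in CPM outside mitochondrial genes on a log axis, with 1 panel per gene. Points are pooled levels, lines are 95% Poisson intervals for counting error, and open triangles mark the upper limit where no UMI was counted. Fos runs from 38.7 CPM in excitatory neurons to 1574 CPM in endothelial cells and had no UMI in red blood cells, while Fosl2 and Npas4 lie lower in radial glia or astrocytes than in excitatory neurons.

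Fos, the gene most used as a mark of recent stimulation, had 8046 UMIs and was seen in 20.9% of all cells. Its level was 38.7 CPM (37.2–40.2) in excitatory neurons, 58.4 CPM in newborn excitatory neurons, 76.4 CPM in Cajal-Retzius cells and 191 CPM (174–209) in inhibitory neurons. The newborn to excitatory ratio of 1.51 (1.32–1.72) was 10.3 (7.04–14.4) with only newborn cells lacking Neurod2 and Neurod6 UMIs. In the glial gates it was 974 CPM (927–1023) in radial glia or astrocytes, 415 CPM in dividing cells and 420 CPM in oligodendrocyte precursors. The last pair differed by less than the counting error, and radial glia or astrocytes lay 25.2 times above excitatory neurons. The vessel gates reached 1574 CPM (1372–1796) in endothelial cells and 1344 CPM (1133–1582) in mural cells or fibroblasts, whose intervals overlap. To compare shares of cells at 1 depth, each cell with at least 2000 UMIs outside the mitochondrial genes was thinned at random to that number. After thinning, a Fos UMI was seen in 5.76% of excitatory neurons, 21.9% of inhibitory neurons, 33.2% of oligodendrocyte precursors and 48.2% of radial glia or astrocytes. The signal was uneven between cells, and the 1% of cells richest in Fos, 111 in number, held 39.5% of its UMIs. Cells with 10 or more Fos UMIs numbered 147, of which 47 were radial glia or astrocytes, 21 oligodendrocyte precursors, 8 endothelial and 6 excitatory, and 36 had passed gates of more than 1 family.

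Fosb, a partner of Jun proteins and close relative of Fos, was likewise low in excitatory neurons and highest in vessels. It stood at 8.15 CPM in excitatory neurons, 31.5 CPM in inhibitory neurons, 69.9 CPM (57.7–84.0) in radial glia or astrocytes and 21.1 CPM in oligodendrocyte precursors. Endothelial cells had 479 CPM (371–609) and mural cells or fibroblasts 215 CPM, and the endothelial level was 58.8 times the excitatory one. Fosl2, which encodes Fra-2, went the other way in glia. It had 12 CPM (11.2–12.9) in excitatory neurons and 18.0 CPM in inhibitory neurons, but 2.45 CPM (0.669–6.28) in radial glia or astrocytes, on 4 UMIs, and 2.01 CPM in oligodendrocyte precursors, also on 4 UMIs. The ratio of radial glia or astrocytes to excitatory neurons was 0.205 (0.0556–0.526). In the vessel gates Fosl2 was high with the rest, at 129 CPM (76.3–203) in endothelial cells and 93.3 CPM in mural cells or fibroblasts. Of the UMIs of the Fos family, Fosl2 gave 20.4% in excitatory neurons and 0.234% in radial glia or astrocytes, where Fos gave 93.1%.

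Jun, the central partner in AP-1, was the most widely seen member, in 37.0% of all cells. It gave 90.2 CPM (88.0–92.5) in excitatory neurons, 66.8 CPM in newborn excitatory neurons, 26.1 CPM in Cajal-Retzius cells and 226 CPM in inhibitory neurons. The newborn to excitatory ratio of Jun, 0.740, turned to 2.13 with only newborn cells lacking Neurod2 and Neurod6 UMIs. In radial glia or astrocytes it reached 1128 CPM (1077–1181), and a Jun UMI was seen in 81.2% of these cells after thinning. Dividing cells stood at 469 CPM, oligodendrocyte precursors at 398 CPM, endothelial cells at 1845 CPM (1627–2085) and mural cells or fibroblasts at 1353 CPM. Of 198 cells with 10 or more Jun UMIs, 71 were radial glia or astrocytes, which is 30.0% of that gate, and 29 were excitatory. Junb, a weaker activator that competes with Jun, showed smaller glial differences. Its levels were 31.3 CPM in excitatory neurons, 79.5 CPM in inhibitory neurons, 81.6 CPM (68.3–96.7) in radial glia or astrocytes and 73.4 CPM in oligodendrocyte precursors, and the last 3 did not differ beyond counting error. Microglia or macrophages had 387 CPM of Junb, endothelial cells 1574 CPM (1372–1796) and mural cells or fibroblasts 1605 CPM (1374–1863). Junb therefore made up 6.74% of the Jun and Junb UMIs in radial glia or astrocytes, 15.6% in oligodendrocyte precursors and 46.0% in endothelial cells.

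Egr1, a zinc-finger transcription factor induced through SRF, was higher in oligodendrocyte precursors than in other glial gates, as was Ier2 among the rest. It had 909 CPM (868–952) there, against 467 CPM (434–501) in radial glia or astrocytes and 560 CPM in dividing cells, and 67.6% of thinned oligodendrocyte precursors carried an Egr1 UMI. It was the 1 member at least 2-fold higher in newborn than in other excitatory neurons, at 222 CPM (208–237) against 33.1 CPM, a ratio of 6.70 that was 26.8 with only newborn cells lacking Neurod2 and Neurod6 UMIs, with 59.8 CPM in inhibitory neurons. Of the 234 cells with 10 or more Egr1 UMIs, 76 were oligodendrocyte precursors, 36 newborn excitatory neurons and 31 radial glia or astrocytes, and 5 were excitatory. Endothelial cells had 515 CPM and mural cells or fibroblasts 672 CPM, so the vessel gates did not stand above the glial gates for Egr1 as they did for Fos and Junb.

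Nr4a1, a nuclear receptor without a known natural ligand, gave 5.27 CPM in excitatory neurons, 3.36 CPM in newborn and 9.01 CPM in inhibitory neurons. Radial glia or astrocytes had 55.2 CPM (44.4–67.9), dividing cells 35.7 CPM and oligodendrocyte precursors 44.2 CPM. The vessel gates had 300.4 CPM (217–406) and 373 CPM (267–508), with overlapping intervals. Npas4, a transcription factor that shapes inhibitory synapses in response to activity, had few UMIs in every gate. Its level was 4.55 CPM (4.06–5.09) in excitatory neurons, on 304 UMIs, and 17.6 CPM (12.7–23.7) in inhibitory neurons. Radial glia or astrocytes had 2 UMIs, a ratio to excitatory neurons of 0.269 (0.0325–0.982), and oligodendrocyte precursors 4, all in 1 cell, a ratio of 0.442 (0.120–1.14), and the endothelial, mural, dividing and microglial gates had 0.

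Ier2, a small nuclear protein of the rapid response, stood at 57.3 CPM in excitatory neurons and 27.0 CPM in inhibitory neurons, a ratio of 0.472 and the only member at least 2-fold lower in inhibitory neurons. It gave 88.4 CPM in newborn excitatory neurons (1.54 times the excitatory level, and 4.40 with only those lacking Neurod2 and Neurod6 UMIs), 177 CPM in radial glia or astrocytes, 289 CPM (265–313) in oligodendrocyte precursors and 1094 CPM (928–1282) in endothelial cells. Where the cells that passed gates of more than 1 family were put into the rarer of their families, the inhibitory ratio of Ier2 turned to 1.11. Arc, which encodes a capsid-like protein of the synapse, was scarce, with 70 UMIs in 0.542% of all cells. Excitatory neurons had 8 Arc UMIs in 6995 cells, 0.120 CPM, while radial glia or astrocytes had 17 UMIs in 237 cells, 10.4 CPM (6.07–16.7). Oligodendrocyte precursors had 17 UMIs as well, 8.55 CPM (4.98–13.7), inhibitory neurons 7, dividing cells 4 and newborn excitatory neurons 2, and the endothelial and mural gates 0. Despite its synaptic role, Arc was thus 87.0 times higher in radial glia or astrocytes than in excitatory neurons (35.6–233) on very few molecules.

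Free RNA in the droplets can give UMIs to cells that do not express a gene. Red blood cells, which have no nucleus when mature, carried 2 member UMIs in 21 cells, 0.0952 per cell (0.0115–0.344), at a median of 348 UMIs outside haemoglobin and mitochondrial genes. Excitatory neurons carried 2.68 member UMIs per cell at a median of 8620 such UMIs, newborn excitatory neurons 4.11, inhibitory neurons 3.33, radial glia or astrocytes 20.4, oligodendrocyte precursors 16.3 and endothelial cells 65.6. Neurod6, the excitatory marker, gave 7.74 UMIs per excitatory neuron, 0.203 per radial glial cell or astrocyte, 0.230 per oligodendrocyte precursor and 0.190 per red blood cell. Neurod6 was thus at a like number per cell in red blood cells and both glial gates, although the glial cells were deeper. Cells with 3 or more UMIs over 2 excitatory markers could not enter these gates, so a low Neurod6 number there was partly set by the gating. The member UMIs per cell of the neuronal, glial and endothelial gates all lay above the upper limit of the red blood cells, 0.344 per cell. As a share of UMIs the red blood cells gave 230.3 CPM of the members once haemoglobin was left out, with a wide interval (27.9–832) from 2 UMIs. That interval includes the sums of excitatory, newborn excitatory and inhibitory neurons, at 281, 467 and 662 CPM. Single members were not compared with red blood cells in this way.

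Within the excitatory gate, cells were split by layer markers into upper layers (3106 cells, Cux1, Cux2, Unc5d, Mdga1), layer IV (574, Rorb, Rspo1, Kcnh5), layer V (961, Fezf2, Bcl11b, Ldb2, Crym), layer VI (1060, Foxp2, Tle4, Syt6, Hs3st4, Zfpm2) and layer VIb (58). The members did not share 1 order of layers. Junb was higher in deeper layers, from 13.6 CPM (12.2–15.1) in upper layers through 26.0 in layer IV and 33.5 in layer V to 80.4 CPM (75–86) in layer VI, with 52.9 in layer VIb. Npas4 gave 1.48 CPM (1.05–2.02) in upper layers, 3.83 in layer IV, 4.19 in layer V and 13.8 CPM (11.6–16.3) in layer VI. Both were thus highest in the layer that projects to the thalamus, with layer VI to upper layer ratios of 5.90 (5.21–6.70) for Junb and 9.33 (6.51–13.7) for Npas4. The shallower 530 layer VI cells, with a median of 7651.5 UMIs, had 85.2 CPM of Junb and 12.7 of Npas4, close to the whole layer.

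Fos and Egr1 instead peaked in layer IV, with 75.4 CPM (69.8–81.5) and 59.2 CPM, against 32.4 and 23.1 CPM in upper layers and 24.3 and 27.5 CPM in layer VI. With Npas4, at 2.59 times the upper layer level, 3 of 9 members were at least 2-fold higher in layer IV and 0 lower, beside 4.53% and 3.27% of all genes. Layer IV cells were deeper, with a median of 14320.5 UMIs against 8022.5 in upper layers. Beside the deepest 777 upper layer cells, whose median was 12993 UMIs and which had 47.9 CPM of Fos, 36.4 of Egr1 and 2.30 of Npas4, none of the 3 was 2-fold higher in layer IV. Jun ran the other way to Junb, with 113 CPM in upper layers, 84.0 in layer IV, 66.8 in layer V and 70.6 in layer VI. The deepest 777 upper layer cells had 87.8 CPM (82.5–93.5) of Jun, close to layer IV. Fosl2 peaked in layer V, at 28.8 CPM (26.1–31.7) against 4.48 in upper layers and 10.3 in layer VI. Fosb rose from 5.08 CPM in upper layers to 15.7 CPM in layer VI and Nr4a1 from 3.64 to 8.98 CPM. Ier2 had 49.8 CPM in upper layers, 66.3 in layer IV, 63.9 in layer V and 62.0 in layer VI, and the last 3 did not differ beyond counting error. Between layer VI and upper layers 5 of 9 members were at least 2-fold higher and 0 lower, beside 7.45% and 5.57% of all genes, yet the sum of the members differed by only 1.27 times. Junb made up 53.2% of the Jun and Junb UMIs in layer VI and 10.7% in upper layers.

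**Figure D2:**
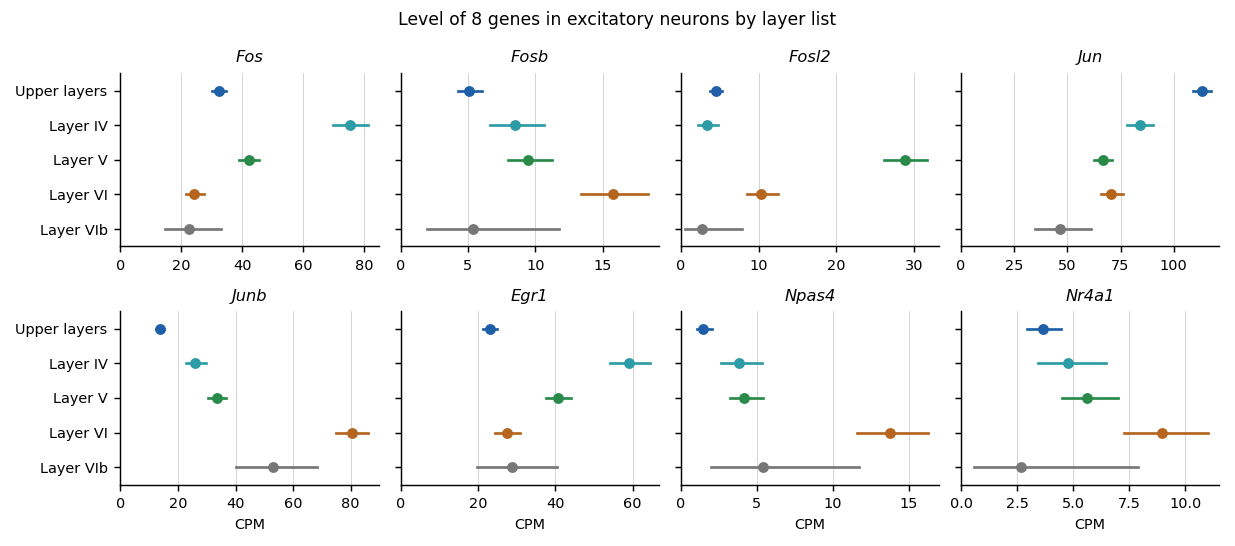
Levels of 8 genes over 5 layer gates of excitatory neurons, in CPM on linear axes from 0, with 95% Poisson intervals for counting error. Junb and Npas4 are highest in layer VI, Fos and Egr1 in layer IV, Fosl2 in layer V, and Jun in upper layers.

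A set of 324 excitatory neurons carried at least 3 UMIs each of Scg2, a secreted granin, and Npy, a neuropeptide. It was looked at because an earlier clustering of these data had placed Fosl2 beside these genes, so its Fosl2 value is a description. Fosl2 gave 71.2 CPM (63.8–79.3) in them and 7.57 CPM in the other excitatory neurons, a ratio of 9.42 (8.16–10.9), and 45.4% of them had a Fosl2 UMI. These cells were also deeper, with a median of 13222.5 UMIs against 8668. The other 8 members with enough UMIs lay between 0.537 and 1.34 times the level of the remaining neurons, so 0 of them passed 2-fold, where 3.24% of all genes were higher and 5.83% lower. Fosl2 made up 64.1% of the Fos family UMIs of these cells.

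Among inhibitory neurons, 185 carried markers of the Lhx6 lineage from the medial ganglionic eminence, 166 of the caudal lineage (Adarb2, Prox1, Sp8) and 35 of striatal-type neurons. Fos gave 308 CPM (277–341) in Lhx6 interneurons, 78.5 CPM in caudal and 81.4 CPM in striatal-type cells. Junb gave 117 CPM against 16.6 CPM between the first pair, a ratio of 7.06 (3.83–14.5), and Fosb 48.4 against 10.6 CPM. Fosl2 had 40 UMIs in Lhx6 interneurons, 32.8 CPM, and 0 in caudal interneurons, which allows up to 5.57 CPM. Jun hardly differed, with 247 and 218 CPM, and Ier2 was lower in Lhx6 interneurons, with 17.2 against 49.8 CPM. In this comparison 4 of 6 members with enough UMIs were at least 2-fold higher and 1 lower, beside 7.64% and 5.38% of all genes. Npas4 stood out in striatal-type cells, with 65.2 CPM (39.8–101) on 20 UMIs, seen in 31.4% of the 35 cells, against 16.4 CPM in Lhx6 and 3.02 CPM in caudal interneurons.

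Whether several members were seen in the same cell was read from the thinned cells, which gives each cell the same number of UMIs. Cells that had been deeper before thinning still differed, as the share with a Fos UMI was 3.33, 3.15, 6.00 and 9.72% over 4 equal parts of the excitatory gate from shallow to deep. In excitatory neurons 61.9% of cells had none of the 10 members, and 88 of 6386 cells, 1.38% (1.11–1.70), had 3 or more, with at most 6 in a cell. In radial glia or astrocytes 8.48% had none and 82 of 224 cells, 36.6% (30.3–43.3), had 3 or more, with up to 8. In oligodendrocyte precursors 84 of 238 cells, 35.3%, had 3 or more. The vessel cells were nearly all in this state, with 12 of 13 endothelial cells and 15 of 17 mural cells or fibroblasts. Inhibitory neurons had 6.94%, with 11.3% in the Lhx6 lineage and 2.96% in the caudal one, and newborn excitatory neurons had 2.77%. None of 10 red blood cells and none of 27 Cajal-Retzius cells had 3 or more members. These shares hold for 2000 UMIs per cell, and at 4000 UMIs they were 5.56% in excitatory neurons and 49.5% in radial glia or astrocytes. Over all alternative settings they ran from 11.9 to 61.0% in oligodendrocyte precursors and from 2.89 to 19.0% in inhibitory neurons. By layer the share was 0.571% in upper layers, 2.45% in layer IV, 2.09% in layer V and 2.81% in layer VI.

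**Figure D3:**
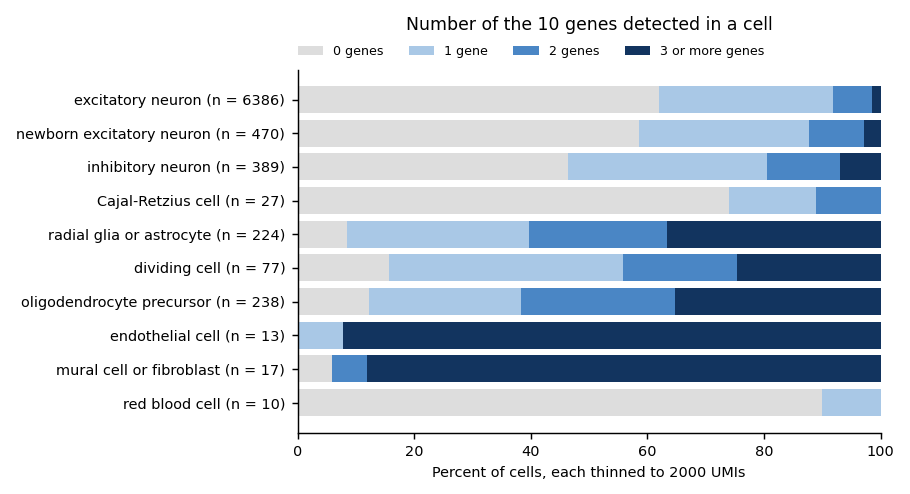
Share of cells, in percent, in which 0, 1, 2, or 3 and more of the 10 genes had a UMI after each cell was thinned to 2000 UMIs, as stacked bars for gates with at least 10 such cells. Cells with 3 or more make up 1.38% of excitatory neurons and 36.6% of radial glia or astrocytes.

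Most pairs of members met in the same cell more often than their separate shares give. In excitatory neurons an Egr1 UMI was seen in 11.4% of 368 cells with Fos and in 4.74% of 6018 cells without, a ratio of 2.41 (1.70–3.34). Thinned to 1000 UMIs, that ratio was 1.31 (0.474–2.92). Fosb was seen in 4.89% of cells with Fos against 1.68% without, and Fosl2 in 4.89% of 348 cells with Junb against 1.67% without. Npas4 was seen in 5.04% of 119 cells with Fosb and in 0.878% of the rest, on 6 cells. Jun was seen in 12% of excitatory neurons with Fos and 15.6% of those without, with overlapping intervals. Among 31 pairs with at least 2 cells expected to hold both, 26 met more often than expected in this way, and in 7 the intervals of the shares with and without the first gene were apart, all 7 in the higher direction. Pairs of other genes were not counted in this way. As a level, 2 of the 8 other members with enough UMIs, Fosb at 2.89 (1.64–4.79) and Egr1 at 2.54 (1.85–3.41), were at least 2-fold higher in excitatory neurons with a Fos UMI than in those without and 0 lower, beside 1.16% and 4.81% of all genes. The median ratio was 1.46 over the 8 members and 0.976 over all genes.

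Pairs with Fos also met often in radial glia or astrocytes. Egr1 was seen in 54.6% of 108 cells with Fos and 18.1% of 116 without, a ratio of 3.02, and Nr4a1 in 18.5% against 2.59%, a ratio of 7.16. Fosb was seen in 28.7% of cells with Fos against 6.03%, and Junb in 25.9% against 5.17%. Jun, present in most of these cells, was seen in 87.0% of cells with Fos and 75.9% of those without. Here 21 of 22 pairs met more often than expected and 11 had intervals apart. In oligodendrocyte precursors Egr1 was seen in 83.5% of cells with Fos and 59.7% of those without, and 18 of 20 pairs met more often than expected, 2 with intervals apart. In inhibitory neurons Junb was seen in 22.4% of cells with Fos and 7.57% of those without, and 12 of 14 pairs were above expectation, 1 with intervals apart. Pairs of other genes were not counted in these gates either, so whether the members differ from other genes here was not tested.

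The excitatory gate was divided by UMIs per cell into 4 equal parts, with median depths of 2940, 7386.5, 10467 and 16412 UMIs. The sum of the members moved little, at 249.9, 242, 289.9 and 296 CPM from shallow to deep. Fos and Egr1 were higher in the deeper cells, Fos with 20.1, 17.2, 33.9 and 52.7 CPM and Egr1 with 17.8, 12, 32.6 and 44.2 CPM. Jun fell over the same parts, with 129.65, 119, 80.1 and 78.4 CPM. The deepest part over the shallowest gave 2.62 (2.14–3.23) for Fos, 2.49 for Egr1 and 0.605 (0.554–0.660) for Jun. These 2 members passed 2-fold upward and 0 downward, beside 4.18% and 9.45% of all genes. Over all cells of the library both calls were lost, with 1.54 for Fos and 1.56 for Egr1. Over alternative settings Npas4 ran from 0.623 to 2.25 and Fosl2 from 0.932 to 2.19, so upward calls were also gained. Among upper layer cells alone the values of Fos were as far apart, with 14.4, 11, 30.6 and 47.9 CPM.

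A high mitochondrial share is a usual sign of a damaged cell. The excitatory gate divided into 4 equal parts by that share had medians of 2.55, 3.12, 3.67 and 7.65%, and the last part was also shallow, with a median of 3480 UMIs. The sum of the members was 284, 286, 281 and 258 CPM, so it did not rise with the mitochondrial share. Jun gave 87.6 CPM in the first part and 99.5 in the last, a ratio of 1.14 (1.04–1.24) that turned to 0.955 with protein-coding mitochondrial genes alone and to 0.551 over all cells. Fos gave 36.2, 41.9, 42.0 and 27.7 CPM, and its ratio of 0.764 turned to 1.06 with protein-coding mitochondrial genes alone. Npas4 fell from 7.0 CPM through 3.06 and 4.28 to 3.15 CPM, a ratio of 0.450, and Junb from 40 to 23.2 CPM, a ratio of 0.580. Npas4 was the 1 member past 2-fold downward and 0 went upward, beside 0.794% and 0.962% of all genes. That call was lost with protein-coding mitochondrial genes alone, at 0.553, and over all cells, at 0.957, where Fos gave 0.333 and Egr1 0.231. Among cells of 5000 to 15000 UMIs the ratio of Npas4 was 0.394, that of Junb 0.569 and that of Fos 1.04, and that of the sum 0.940, with 1 member past 2-fold downward and 0 upward, beside 1.27% and 0.189% of all genes.

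**Figure D4:**
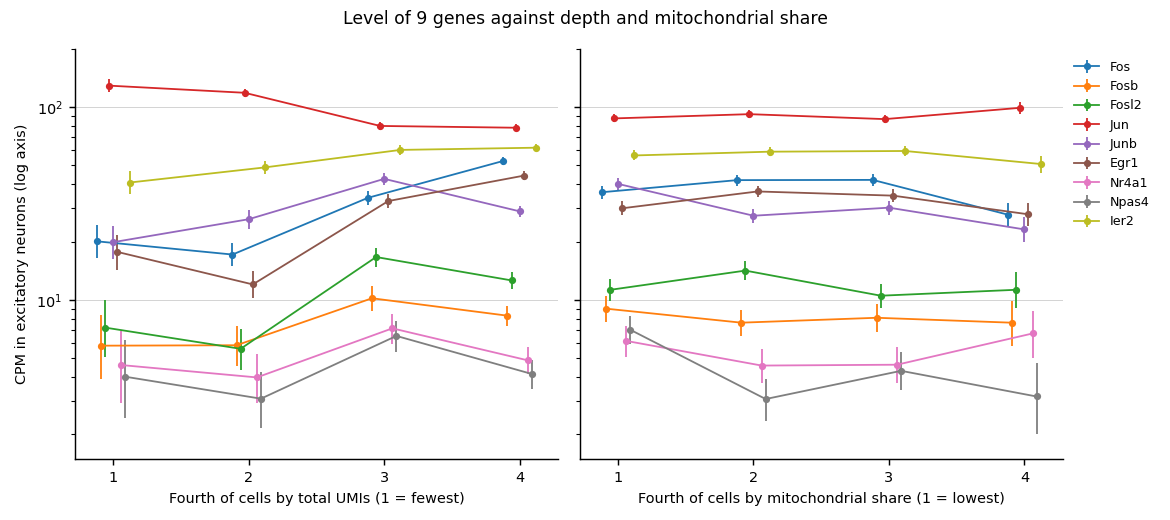
Levels of 9 genes (Arc had too few UMIs) in the excitatory neuron gate divided into 4 equal parts by UMIs per cell (left) and by mitochondrial share (right), in CPM on a log axis. Fos and Egr1 are higher in the deepest part (52.7 and 44.2 CPM) than in the shallowest (20.1 and 17.8 CPM) and Jun is lower. On the right, Npas4 and Junb are lower in the last part than in the first, and Fos is lowest in the last part, at 27.7 CPM.

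The glial gates were divided into a lower and an upper part by mitochondrial share, and the 2 gates went opposite ways. In radial glia or astrocytes the sum was 2350.2 CPM in the lower part and 3689 CPM in the upper, Fos 664 and 1338 CPM, Egr1 257 and 713 CPM, and Jun 1154 and 1098 CPM. In oligodendrocyte precursors the sum was 2385 CPM in the lower part and 1867 in the upper, with Fos at 509.7 and 296 CPM and Egr1 at 946 and 859 CPM. The share of cells with 3 or more members was 30.2% (22–39.4) and 43.5% (34.0–53.4) in radial glia or astrocytes, intervals that overlap. It was 43.8% (35.0–52.8) and 25.5% (17.6–34.6) in oligodendrocyte precursors. Median shares of mitochondrial UMIs were low in both gates, 2.06% and 2.62%, below the 3.36% of excitatory neurons.

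The 88 excitatory neurons with 3 or more members had a median of 10949.5 UMIs and a mitochondrial share of 3.35%, and 1.14% of them were above 10%. The 3955 with no member had 9167 UMIs and 3.30%, with 3.01% of them above 10%. Layer VI cells made up 33.0% of the first set and 15.0% of the second, and upper layer cells 19.3% and 49.3%. Between these sets, each thinned to 2000 UMIs per cell, 5.27% of 10178 genes were at least 2-fold higher and 12.9% lower, with a median ratio of 0.973.

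Other genes of the rapid response were read from a list of 37 symbols, of which 36 were in the table. Of 19 with enough UMIs, 4 were at least 2-fold higher in cells with 3 or more members and 1 lower, with a median ratio of 1.26, and 2 of 21 were higher with cells thinned to 4000 UMIs. The lower gene was Klf2 at 0 UMIs, with an upper limit of the ratio of 3.12, which shows no lower level. Nr4a3, a relative of Nr4a1, had 131 CPM against 37.8, a ratio of 3.46 (2.16–5.29), and Dusp1, a phosphatase that switches off MAP kinases, 131 against 34.5 CPM, a ratio of 3.79 (2.36–5.80). Btg2 gave a ratio of 3.6 (0.943–9.79) and Rgs2 one of 3.21 (0.845–8.69), both with intervals that include 1. Of 8 slower activity genes of neurons, 2 were higher and 1 lower, with a median of 1.35. No alternative kept both, as 0 of 6 were higher at 1000 UMIs, 1 of 10 at 4000 UMIs and 1 of 8 below a mitochondrial share of 10%. Npy had 818 against 397 CPM, a ratio of 2.06 (1.73–2.44), Nptx1, a neuronal pentraxin, a ratio of 6.29 (2.41–13.9) on 7 UMIs, and Kcna1, a potassium channel, had 0 UMIs in the first set, with an upper limit of 1.90.

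Heat shock and unfolded protein genes, often raised by rough handling of tissue, gave 0 higher and 0 lower of 12, with a median of 1.01. The 4 with most UMIs were Hsp90ab1 at 1.01 (0.939–1.10), Hsp90aa1 at 1.07 (0.929–1.23), Hspa8 at 0.850 (0.695–1.03) and Dnaja1 at 1.10 (0.868–1.37). With cells thinned to 1000 UMIs, 4 of 12 were at least 2-fold higher. At that depth only 0.219% of excitatory neurons had 3 or more members, and the share of all genes past 2-fold was not computed. The inducible Hspa1a and Hspa1b, with 89 and 81 UMIs in the whole library, had too few thinned UMIs here. Over whole gates they had 44.5 and 48.6 CPM in both vessel gates pooled, 9.81 and 6.75 in radial glia or astrocytes and 0.344 and 0.554 in excitatory neurons. The genes listed as kinases and factors that switch on the members gave 0 higher and 3 lower of 14, with a median of 1.03. The lower ones were Ncoa7 at 0.427 (0.138–1.003), Mapk3 at 0.386 (0.105–0.994) and Rps6ka5 at 0.258 (0.0065–1.46). Whether each listed gene, such as Ncoa7, switches on the members was not tested. The intervals of Ncoa7 and Rps6ka5 include 1. Mef2c, a MEF2 factor of cortical neurons, was at 1.17 (1.08–1.26).

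**Figure D5:**
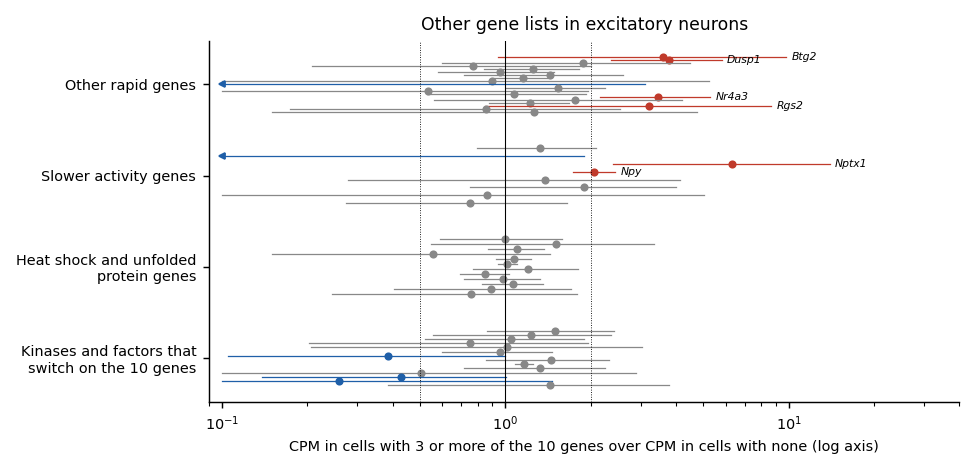
Ratio of the level in excitatory neurons with 3 or more members to the level in those with none, on a log axis, for the genes of 4 lists, with each cell thinned to 2000 UMIs. Red points are 2-fold or more higher, blue points 0.5 or lower, dotted lines mark 2 and 0.5, and an arrow at the left edge marks 0 UMIs. Dusp1, Nr4a3, Btg2, Rgs2, Npy and Nptx1 pass 2-fold upward, and no heat shock gene passes either line.

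Set against excitatory neurons, the lists moved unevenly in the gates where the members were high. In radial glia or astrocytes 12 of 31 rapid genes were at least 2-fold higher and 10 lower, beside 20% and 26.5% of all genes. The median ratio of the 31 was 1.36, against 0.917 over all genes. Among those past 2-fold, the 4 with most excitatory UMIs, Plk2, Homer1, Ier5 and Nr4a2, were all lower, at 0.0451 to 0.350. Naming genes by their excitatory UMIs favours low ratios, here and in the lists below. Slower activity genes gave 6 higher and 9 lower of 17, with Npy at 0.0385, Inhba at 0.0549, Scg2 at 0.0292 and Pim1 at 2.28. Heat shock genes gave 0 higher and 4 lower of 12, and kinases and factors 1 and 3 of 14. In oligodendrocyte precursors, where 19.2% of all genes were higher and 20.9% lower, the counts were 13 higher and 6 lower of 32 rapid genes, 4 and 9 of 17 slower genes, 0 and 0 of 12 heat shock genes, and 2 and 3 of 14 kinases and factors. In both vessel gates pooled, where 20.7% of all genes were higher and 42.2% lower, 23 of 31 rapid genes were higher and 4 lower, with Jund at 2.01, Klf6 at 5.38, Nr4a2 at 2.20 and Homer1 at 0.141. There heat shock genes gave 3 higher and 4 lower of 12, slower genes 3 and 12 of 16, and kinases and factors 2 and 3 of 14. Within the pooled glial gates, cells with 3 or more members against those with none had 2 of 4 rapid genes higher and 0 of 8 heat shock genes past 2-fold, beside 4.19% of all genes higher and 1.24% lower. In inhibitory neurons, where 8.62% of all genes were higher and 9.89% lower, 8 of 31 rapid genes were higher and 8 lower, 6 and 7 of 18 slower genes, 0 and 0 of 12 heat shock genes and 2 and 1 of 14 kinases and factors. Tissue digestion was common to all cells of the library, and how much of each member's level arose before or during it was not tested.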

How the data were processed

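Single-cell RNA-seq of 1 wild-type P0 cortex library was analysed from the table of raw UMI counts per gene and cell that the authors deposited, together with their table of UMIs and genes per cell, whose totals matched for 11062 of 11062 cells. Per the submitters' processing notes, STAR, Cell Ranger 2, Seurat and the mm9 build were used upstream. No coordinates of the deposited files were used, and promoter sequences came from RefSeq on GRCm38.p6. The deposited cells had at least 500 UMIs.

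A cell entered a gate with at least 3 UMIs over at least 2 of its markers, or 6 UMIs over 3 markers for radial glia or astrocytes, where Ptprz1 and Mfge8 were left out. Thresholds were set after marker UMIs, but not member UMIs, had been seen. Newborn markers took precedence over excitatory ones, and oligodendrocyte precursors over dividing cells over radial glia or astrocytes. Newborn markers also took precedence over dividing ones in cells that passed neither the radial glial nor the oligodendrocyte precursor gate. No doublet caller was run, and the 447 cells that passed gates of more than 1 family were set aside. CPM was computed from UMIs pooled over the cells of a gate, without mitochondrial genes, with exact Poisson intervals for levels, exact binomial (Clopper-Pearson) intervals for shares, and ratios of 2 Poisson counts through the binomial, all at 95%. Thinning drew 2000 UMIs per cell without replacement (seed 1), and left out shallower cells, so that 6386 of 6995 excitatory neurons were used. Calls were 2-fold or more, among genes with at least 50 UMIs over both sets. With 1 library there was no p-value. The steps were tested on simulated data.

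The members, lists and the set with Scg2 and Npy were chosen with earlier results of these data known. All members are named. From each list up to 4 genes are named, those with most UMIs in the excitatory gate among those past 2-fold and then among the rest, and Hspa1a, Hspa1b and genes of the closing section named outside that rule were chosen after their values were seen. Some items are not reported here. Python 3.11.15 was used with numpy 2.4.6, scipy 1.17.1, pandas 2.3.3 and matplotlib 3.10.9.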

Additional observations from a re-analysis of the deposited data

How the results depend on the processing

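No paired analysis was possible because the data were 1 library. All alternatives listed at the outset were run. Of 619 values of single genes, gene pairs and cell shares under an alternative, 539 stayed within the counting interval and 73 lay outside it. The other 7 turned, a label given only where the main interval excluded 1. Some of the 73 also crossed 1, such as Fosb in newborn excitatory neurons, from 0.678 to 1.47. Summed over the members and relative to excitatory neurons, a higher marker threshold gave 6.67 for oligodendrocyte precursors, 24.3 for endothelial cells and 2.45 for newborn excitatory neurons, and a ratio of 1.30 between the deepest and shallowest parts. Equal weight per cell gave 7.24 for oligodendrocyte precursors, 22.3 for endothelial cells, 2.07 for inhibitory neurons and 1.36 for layer VI over upper layers. Without the 1% of cells richest in members, endothelial cells stood at 29.7. Both alternatives on gate membership were chosen after seeing the data. With cells of more than 1 family put in the rarest, radial glia or astrocytes gave 8.91 and oligodendrocyte precursors 6.64, and Ier2 in inhibitory neurons turned to 1.11. With only cells lacking Neurod2 and Neurod6 UMIs, radial glia or astrocytes gave 10.9, inhibitory neurons 2.48 and newborn excitatory neurons 6.20, and Jun in newborn excitatory neurons turned from 0.740 to 2.13. Over all cells in place of the excitatory gate, the depth ratio of the sum was 1.27 and the mitochondrial ratio 0.458, Fosl2 by depth turned from 1.76 to 0.932 and Jun by mitochondrial share to 0.551. With protein-coding mitochondrial genes alone, Fos by mitochondrial share turned from 0.764 to 1.06 and Jun from 1.14 to 0.955, and at 5000 to 15000 UMIs Fos turned to 1.04. Cells with 3 or more members made up 0.219% of excitatory neurons and 23.5% of radial glia or astrocytes after thinning to 1000 UMIs, and 5.56% and 49.5% after thinning to 4000. Thinned to 1000 UMIs, 0 of 6 slower activity genes, 4 of 12 heat shock genes and 1 of 14 kinases and factors were past 2-fold upward. Thinned to 4000 UMIs, 2 of 21 rapid genes and 1 of 10 slower genes were, and 1 of 8 slower genes below a mitochondrial share of 10%. The share of all genes past 2-fold was not computed at these settings. The causes were not tested. Small gates limit precision, and a gene without a UMI in 16 endothelial cells may still be expressed in them.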

Other observations

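Other rapid genes that were high in the gates where the members were high include Btg2, an antiproliferative gene, and Cyr61, a secreted matrix protein, both picked out after their values were seen. Btg2 had 390.1 CPM in radial glia or astrocytes against 8.28 CPM in excitatory neurons, a ratio of 47.1 (42.0–52.9), and Cyr61 251 against 0.719 CPM, a ratio of 349 (258–481). In the pooled glial gates, cells with 3 or more members had 632 CPM of Btg2 against 41.7 CPM in cells with none, a ratio of 15.2 (6.41–47.2), where 4.19% of all genes were at least 2-fold higher. Klf2, a transcription factor of the endothelium, had 1053 CPM in the vessel gates and 7.61 CPM in excitatory neurons. Nptx2, a secreted pentraxin that neurons release with activity, was far higher in oligodendrocyte precursors, at 101 CPM against 0.584 CPM, a ratio of 172.

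Among the 10 genes whose level most favoured excitatory neurons with 3 or more members, of 9589 genes with at least 100 thinned UMIs, were Cdh9 at 6.74 times, Nts at 6.03, Mgll at 5.99, Fam65b at 5.07, Pacsin1 at 4.92, Ppfia4 at 4.60, AC120347.1 at 4.49, Mirg at 4.42 and Trpm3 at 4.03. The 10 rested on 6 to 22 UMIs each in those 88 cells, and 0 of the 10 were in the lists. Nts, the neuropeptide neurotensin, had the most, 22 UMIs, with an interval of 3.68 to 9.44.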
